A study of Homo sapiens with 54 samples.

Results

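The 10 genes described here are induced by activity in neurons. They encode proteins of the synapse or proteins that cells secrete, apart from NPAS4, a transcription factor. They are ARC, HOMER1, NPAS4, BDNF, VGF, SCG2, NPTX2, INHBA, HBEGF and LIF. They were taken by name from tables of 60676 genes, and all 10 were found in each of the 53 libraries analysed. The libraries are RNA-seq of H9 hMSN-like cells, which are neurons of the type of striatal medium spiny neurons (MSNs) differentiated in culture from the H9 line of human embryonic stem cells.

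The libraries fall into 18 groups of 4 experiments, with 3 libraries per group except 5 Day, which has 2 here. In the 1 mM and in the 1 µM dopamine experiment, cultures were given dopamine for 1 h, either once (Acute) or daily for 5 days (Chronic), and RNA was taken 1 h or 24 h later, while control cultures were given PBS. In the daily-dose experiment, cultures had received 1 mM dopamine on 2, 3, 4 or 5 days (2 Day to 5 Day), with RNA taken 1 h after the last dose, and control cultures had received ascorbic acid, in which the dopamine was dissolved. In the agonist experiment, cultures received 50 µM SKF82958, an agonist of D1-like dopamine receptors, or 50 µM quinpirole, an agonist of D2-like receptors, and control cultures received water. CGS21680 was not analysed here. As far as the labels go, the PBS controls lacked ascorbic acid, so dopamine and its solvent cannot be told apart in those comparisons. Acute cultures were younger at RNA extraction than Chronic ones in the 1 mM and 1 µM experiments, so repeated dosing and culture age cannot be told apart there. Each of these experiments had 1 PBS group, whose age the labels do not give. That group can match Acute or Chronic cultures in age but not both. Dopamine and culture age therefore cannot be told apart in at least 1 of these comparisons with PBS. All cultures had been given activin A during differentiation, a protein dimer of the subunit that INHBA encodes. No label says whether replicates came from separate differentiations, so p-values measure only the spread between these libraries.

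Neuronal activity raises intracellular calcium and cAMP, which activate kinases and the transcription factor CREB. CREB and related factors switch on immediate early genes within minutes, and some of these encode effectors rather than transcription factors. ARC and HOMER1 act at the postsynaptic density, NPAS4 is a transcription factor of neurons that responds to calcium entry, and BDNF, the granins VGF and SCG2, and the pentraxin NPTX2 are released at synapses or from dense-core granules. INHBA, HBEGF and LIF encode secreted ligands that act on receptors of many cell types. In the striatum, dopamine raises cAMP through D1-like receptors and lowers it through D2-like receptors.

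Because CREB switches on some activity-induced genes, the cAMP response element (CRE), TGACGTCA, and its core TGACG were searched on both strands. The search covered the 250 bases upstream of RefSeq transcription start sites (build GRCh38.p14). The table held promoters of 7 of the 10 genes, with 12 start sites. ARC, SCG2 and LIF were not matched. The full CRE was found upstream of 1 gene, VGF, at 79 bases from the start, and in 1.65% of all 35116 promoters of this length. The core was found upstream of 4 genes, namely NPTX2 at 103 bases, NPAS4 at 140 and 130 bases from the first of its 2 start sites, VGF within its CRE on both strands, and BDNF at 47 bases from 1 of its 5 start sites, and in 21.2% of all promoters. A site of EGR factors (GCGTGGGCG or GCGGGGGCG), as GCGGGGGCG on the minus strand, was found at 135 bases upstream of NPTX2 and in 5.37% of all promoters, overlapping no other match. The AP-1 site (TGACTCA or TGAGTCA, 4.2% of all promoters) and the CArG box (1.16%) were found upstream of none of the 7 genes. A match is a description of letters and not of a bound site. The promoters of the 3 genes with the largest number of such matches are shown 5′ to 3′ up to the base before the start site, with the CRE or its core in capitals. The windows are chr7:101165570-101165819 on the minus strand for VGF, chr7:98617035-98617284 on the plus strand for NPTX2, and chr11:66420754-66421003 on the plus strand for NPAS4.
VGF: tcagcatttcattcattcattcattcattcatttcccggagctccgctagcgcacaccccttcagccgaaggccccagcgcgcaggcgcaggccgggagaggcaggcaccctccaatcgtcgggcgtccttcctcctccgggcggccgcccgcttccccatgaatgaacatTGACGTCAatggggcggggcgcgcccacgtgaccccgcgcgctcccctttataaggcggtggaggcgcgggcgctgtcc
NPTX2: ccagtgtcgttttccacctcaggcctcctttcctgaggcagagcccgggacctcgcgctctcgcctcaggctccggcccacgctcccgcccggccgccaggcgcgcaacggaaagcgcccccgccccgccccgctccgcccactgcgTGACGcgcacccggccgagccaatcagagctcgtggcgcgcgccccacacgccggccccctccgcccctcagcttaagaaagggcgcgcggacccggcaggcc
NPAS4: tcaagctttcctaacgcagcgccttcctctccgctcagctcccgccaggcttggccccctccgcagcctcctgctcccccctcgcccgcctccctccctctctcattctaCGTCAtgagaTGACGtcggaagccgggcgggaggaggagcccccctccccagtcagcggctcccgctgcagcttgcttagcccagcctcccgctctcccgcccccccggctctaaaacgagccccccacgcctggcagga

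Levels are given as TPM, a measure of exon reads per length of transcript that sums to the same total in each library, and differences as log2(fold change) of exon reads ± SE from edgeR's quasi-likelihood test. Adjusted p-values are Benjamini-Hochberg values over all genes tested in a comparison, and a gene was called where this value was under 0.05. All 10 genes passed the filter on low counts in all comparisons. Exon reads per library ranged from 5755919 to 27702963, apart from quinpirole replicate 1, which had 137051 exon reads and 96.7% of its reads in introns (12.3% to 31.2% in the others). That library stands apart from all others, and log2(fold changes) of the agonist experiment are given with and without it. Replicate 1 of 1 mM Acute 24 h also stands apart from replicates 2 and 3 of its group, with FOS at 67.4 TPM and EGR1 at 695.5 TPM. Comparisons of the 1 mM experiment share 1 estimate of the spread, so they were repeated without it.

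In the 12 vehicle libraries, 12 of 13 striatal projection neuron markers had a median TPM of at least 1 (PDYN was below), as did 6 of 6 neuron, 5 of 5 astrocyte, 6 of 6 progenitor and 6 of 6 mesenchymal markers. Endothelial, microglial and pluripotency markers were at this level in 0 of 2 each. The cultures are thus mixtures, and a change in the number of cells of a type and a change in RNA per cell cannot be told apart in bulk RNA. The genes overlapping HOMER1 (AC093270.2), INHBA (INHBA-AS1), BDNF (BDNF-AS and AC103796.1) and LIF (LIF-AS1 and AC004264.1) are uncertain partners of their reads, since the strand used in counting is not given in the sources used here. Values are per gene and do not separate transcripts, such as the short HOMER1 form that activity induces.

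By median TPM over the vehicle libraries, the order of the genes was SCG2 (350), VGF (174), HOMER1 (27.5), NPTX2 (16.4), ARC (12.7), HBEGF (11.1), LIF (4.32), BDNF (2.67), NPAS4 (1.73) and INHBA (0.835). SCG2 lay at the 99.6th percentile of all genes and INHBA at the 72.7th. Among neighbours in this order, the values of VGF and HOMER1 did not overlap, and those of the other neighbours did. The granin genes were therefore the most abundant of the 10 transcripts per length, and INHBA and, outside the water libraries, NPAS4 were close to the level where a few reads decide the value.

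The vehicle groups differed from each other for several of the genes. NPAS4 was at 116, 138 and 171 TPM in the water libraries and at 0 to 4.87 TPM in the other 9 vehicle libraries. ARC was at 48.8 to 60.6 TPM in water and at 6.78 to 17.2 TPM in the others, and VGF at 533.5 to 658 against 53.3 to 194 TPM. The values did not overlap for these 3 genes, nor for SCG2 (541 to 656 against 183 to 522 TPM) and HBEGF (14.06 to 17.8 against 5.23 to 14.01 TPM), and they overlapped for the other 5 genes. FOS, an immediate early gene, was also higher in water, at 204 to 280 against 6.20 to 19.1 TPM. Summed TPM of the 6 progenitor markers was 768 to 869 in water, below the 1346 to 1433 of 1 mM PBS. The vehicles belong to different experiments, so experiment, vehicle and culture cannot be told apart, and levels were tested only within an experiment.

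**Figure D1:**
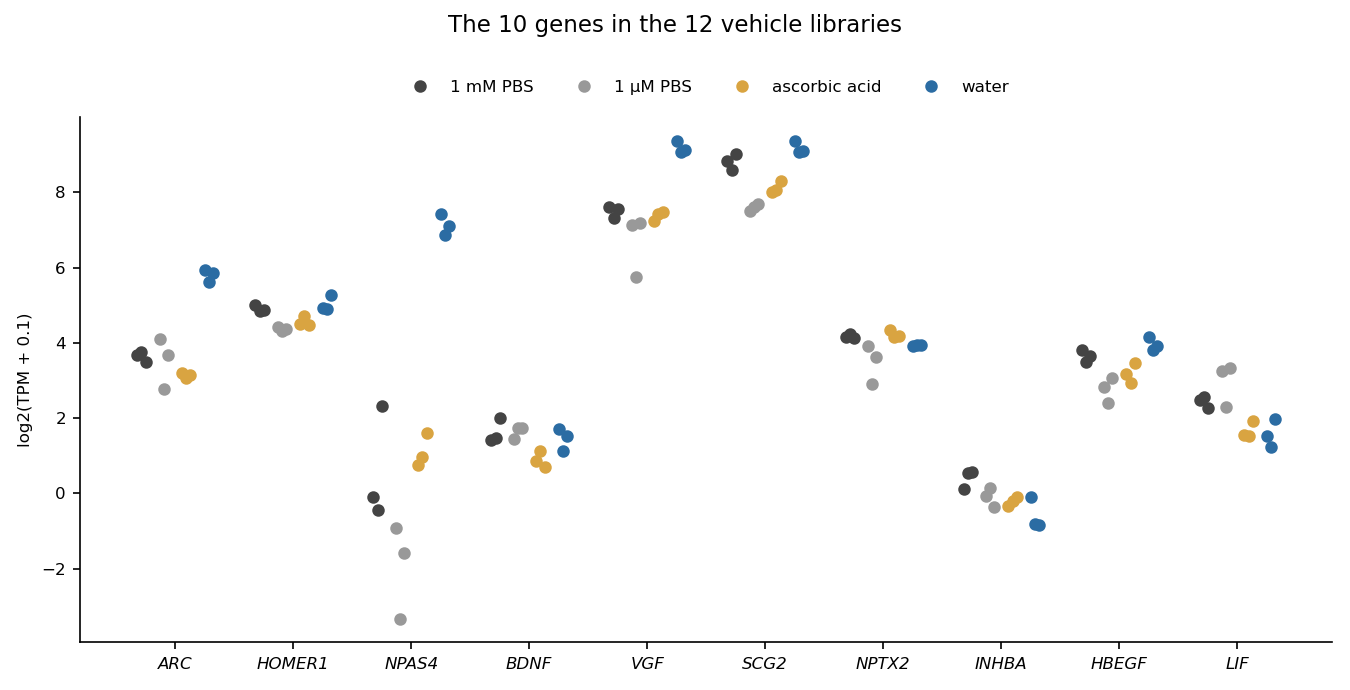
Level of the 10 genes in the 12 vehicle libraries, on a log2(TPM + 0.1) axis with 1 point per library, coloured by vehicle (3 libraries each). The water libraries lie above the other 9 libraries for ARC, NPAS4, VGF, SCG2 and HBEGF, with NPAS4 at 116 to 171 TPM in water and at most 4.87 TPM elsewhere.

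Dopamine was compared with vehicle in 12 comparisons, 8 of them 1 h and 4 of them 24 h after the last dose. Within an experiment these comparisons share their control libraries. ARC was higher in 8 of 8 comparisons at 1 h, of which 1 µM Chronic 1 h was not called within replicate pairs (adjusted p = 0.0541), and was called in 0 of 4 at 24 h. VGF was called in 5 of 8 comparisons at 1 h, NPAS4 and BDNF in 3 each, and SCG2, NPTX2, INHBA, HBEGF and LIF in 1 each, all of them higher with dopamine, while HOMER1 was called in none. At 24 h, INHBA was called in 1 of 4 comparisons and no other gene was.

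The number of called genes and the background of all genes tested differed between comparisons. At 1 mM Acute 1 h, 4 of the 10 genes were called, all higher (ARC, NPTX2, INHBA and VGF), where 16% of all 17804 genes were called and 8.04% were called higher. At 1 mM Chronic 1 h 1 gene was called (ARC; background 2.08%, with 1.27% of all genes higher), at 1 mM Acute 24 h 1 gene (INHBA; 15.5%, 8.38% higher) and at 1 mM Chronic 24 h 0 genes (0.663%). At 1 µM, ARC was the 1 gene called at Acute 1 h (background 5.77%, 3.25% higher) and at Chronic 1 h (2.58%, 1.75% higher), and 0 genes were called at Acute 24 h (3.31%) and at Chronic 24 h, where no gene of the whole table was called (0%). In the daily-dose experiment, the calls were 4 genes at 2 Day (ARC, VGF, NPAS4 and BDNF; background 3.88%, 1.89% higher), 6 at 3 Day (ARC, VGF, NPAS4, SCG2, HBEGF and LIF; 7.37%, 4.77% higher), 4 at 4 Day (ARC, VGF, NPAS4 and BDNF; 4.38%, 2.58% higher) and 3 at 5 Day (ARC, VGF and BDNF; 1.63%, 1.23% higher). Under a stricter rule, which also asked for a log2(fold change) of at least 1 in size and a mean of at least 1 TPM in the higher group, 1 gene was called at 1 mM Acute 1 h (background 4.1%), Acute 24 h (3.7%) and Chronic 1 h (0.82%) and at 1 µM Acute 1 h (2.41%) and Chronic 1 h (1.11%), and 3, 4, 3 and 2 genes at 2, 3, 4 and 5 Day (0.495%, 1.35%, 0.507% and 0.286%). At an unadjusted p under 0.05, the counts, with the share of all genes tested in parentheses, were 7 genes at 1 mM Acute 1 h (30.9%), 3 at 1 mM Acute 24 h (34.5%), 3 at 1 mM Chronic 1 h (16.4%), 1 at 1 mM Chronic 24 h (10.8%), 6 at 1 µM Acute 1 h (20.3%), 0 at 1 µM Acute 24 h (16.8%), 4 at 1 µM Chronic 1 h (14.6%), 1 at 1 µM Chronic 24 h (3.68%), 7 each at 2 Day, 3 Day and 4 Day (20.3%, 22.2% and 20%), and 6 at 5 Day (15.6%). At 1 mM Acute 24 h and Chronic 24 h and at 1 µM Acute 24 h the 10 genes were thus at or under the share of all genes. With DESeq2, 0 genes were called at 1 mM Chronic 24 h, 1 µM Acute 24 h and 1 µM Chronic 24 h as well.

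The median log2(fold change) of the 10 genes was 0.62 at 1 mM Acute 1 h, beside 0.01 over all genes tested. It was 0.27 at 1 mM Chronic 1 h, 0.48 at 1 µM Acute 1 h and 0.15 at 1 µM Chronic 1 h, and 0.58, 0.81, 0.69 and 0.65 at 2, 3, 4 and 5 Day, with the median of all genes between 0.00 and 0.02 in each. At 24 h the median of the 10 genes was 0.19 and 0.10 at 1 mM (Acute and Chronic) and -0.26 and 0.03 at 1 µM. When the library of 1 mM Acute 24 h that stands apart was left out, 7 genes were called at 1 mM Acute 1 h, adding SCG2 (adjusted p = 0.0159), HBEGF (7.58e-05) and NPAS4 (0.0448), while 39.8% of all genes tested were called. The plot of changes shows every gene in the 12 comparisons.

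**Figure D2:**
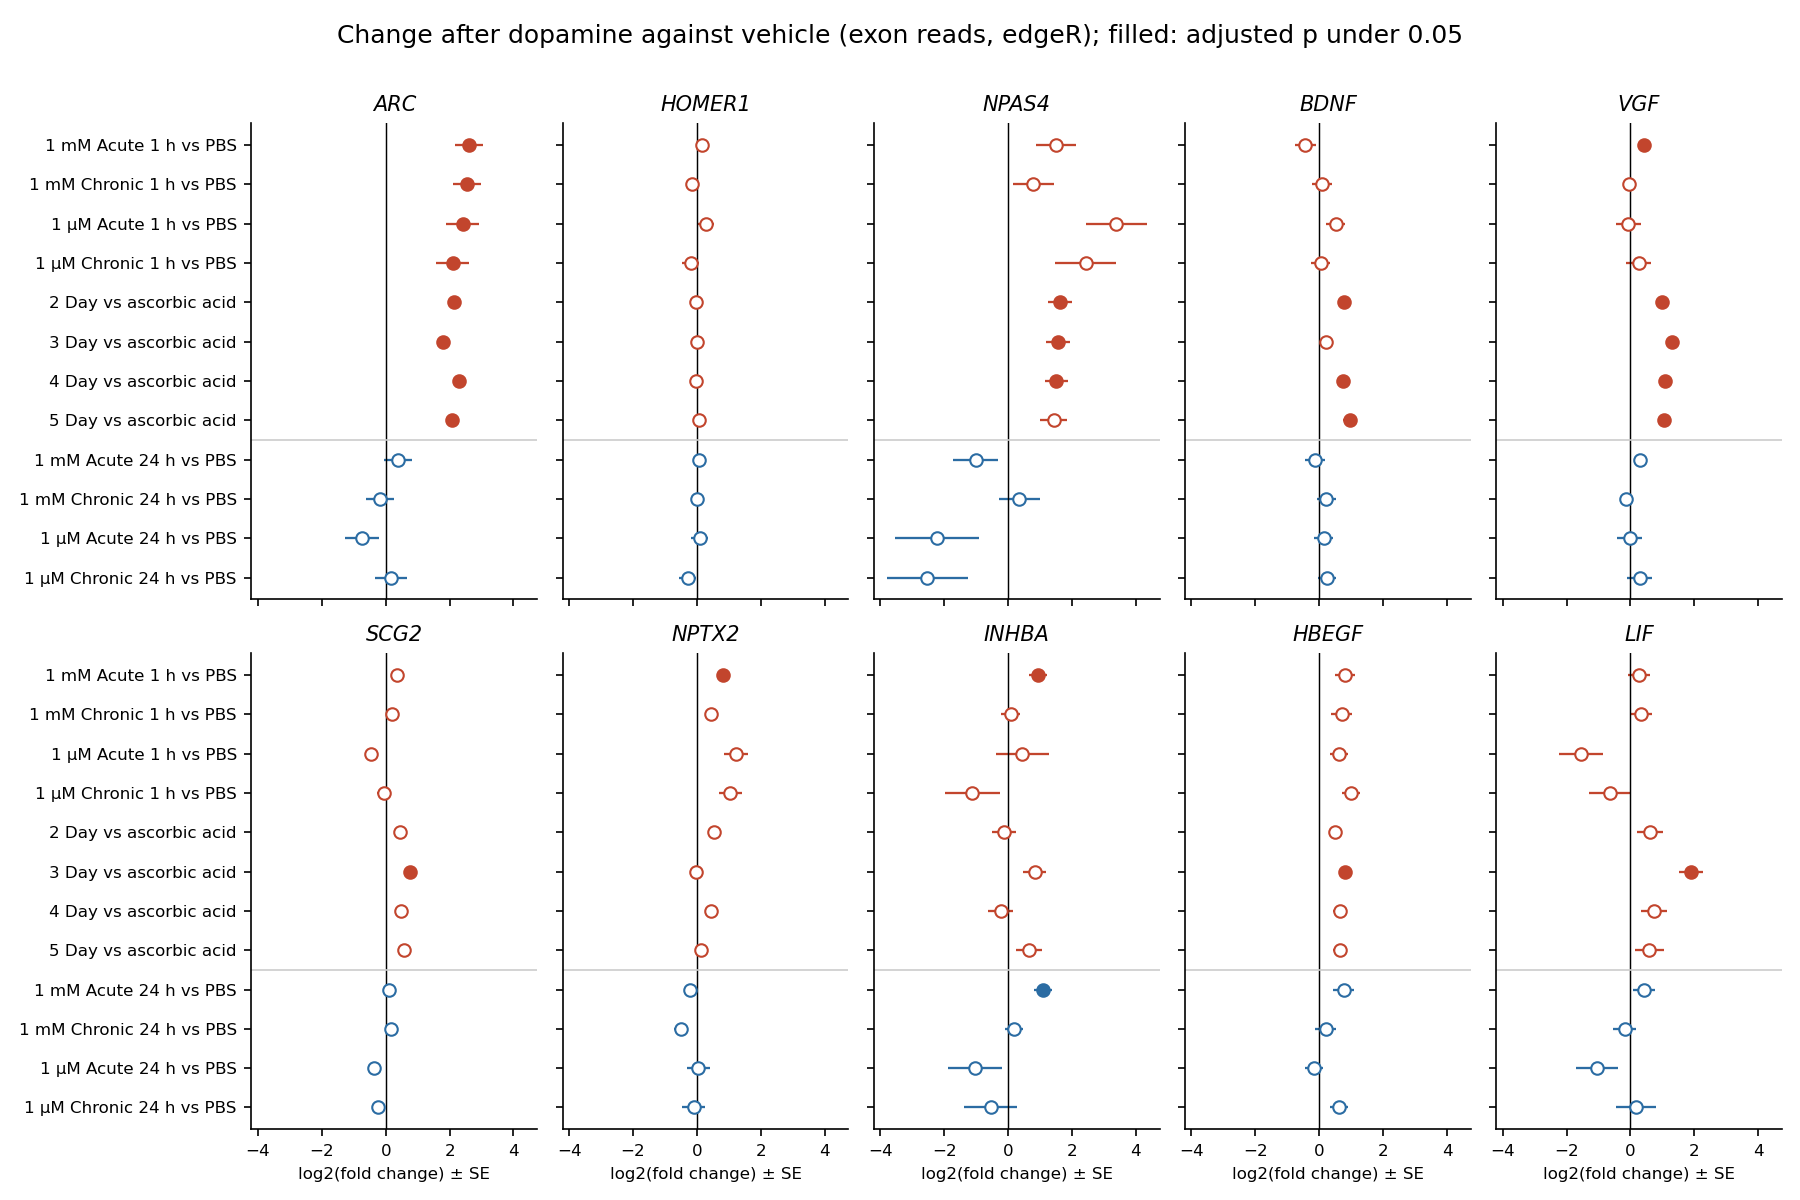
Change of each gene after dopamine against its vehicle, as log2(fold change) of exon reads (x axis) with bars of 1 SE, in 8 comparisons at 1 h (red) and 4 at 24 h (blue). Filled points have an adjusted p under 0.05 (edgeR); ARC is filled in all 8 comparisons at 1 h, though not called at 1 µM Chronic 1 h within replicate pairs, which are not plotted, and HOMER1 in none.

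ARC encodes a protein of the postsynaptic density that drives endocytosis of AMPA receptors (chr8:142611049-142614479, minus strand, GRCh38). In the 1 mM experiment, ARC was at 12.7, 13.4 and 11.3 TPM in PBS, at 78.6, 69.5 and 69.7 TPM at Acute 1 h, and at 83.1, 77.4 and 65.4 TPM at Chronic 1 h. The lowest dopamine library at 1 h was above the highest PBS library in both groups. ARC had a log2(fold change) of 2.61 ± 0.44 at Acute 1 h (adjusted p = 0.00247), a fold change of 6.1, and 2.56 ± 0.44 at Chronic 1 h (adjusted p = 0.0124). Chronic 1 h differed from Acute 1 h by -0.05 ± 0.41 (adjusted p = 0.954), so a difference between a single and repeated dose was not detectable. The call at Acute 1 h was kept with each library left out (largest adjusted p = 0.0147), and that at Chronic 1 h ended without PBS replicate 1 or 2 or Chronic 1 h replicate 2 (largest adjusted p = 0.0708).

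At 1 µM, ARC was at 17.2, 6.78 and 12.7 TPM in PBS, at 79.3, 17.3 and 101 TPM at Acute 1 h, and at 63.0, 19.5 and 71.7 TPM at Chronic 1 h. Replicate 2 was the lowest in all 3 groups, and each group with dopamine stood above PBS without overlap, with replicate 2 of Acute 1 h close to the highest PBS library. Against PBS, the log2(fold change) of ARC was 2.41 ± 0.52 at Acute 1 h (adjusted p = 0.0144) and 2.10 ± 0.52 at Chronic 1 h (adjusted p = 0.0437). Within pairs of the same replicate number ARC was still called at Acute 1 h but was not at Chronic 1 h, where 0 of the 10 genes were. Leaving out PBS replicate 2 or 3 ended the call at Acute 1 h (largest adjusted p = 0.0614), and the call at Chronic 1 h ended with any 1 library of the experiment left out (11 of 15, largest adjusted p = 0.162) other than Acute 1 h replicates 2 and 3, Acute 24 h replicate 1 and Chronic 1 h replicate 2. The effect at Acute 1 h was larger with 1 mM than with 1 µM by 0.21 ± 0.69 (adjusted p = 0.937), which is within the error.

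At 24 h, ARC at 1 mM was at 40.8, 6.85 and 8.96 TPM (Acute) and at 12.2, 12.6 and 8.65 TPM (Chronic). The value of 40.8 TPM belongs to the library that stands apart, and the other 2 lie below every PBS library. The log2(fold change) of Acute 24 h was 0.38 ± 0.44 (adjusted p = 0.561) with that library and -0.70 (adjusted p = 0.0109) without it. At 1 µM, ARC was at 2.76, 10.2 and 9.02 TPM at Acute 24 h and at 16.3, 15.6 and 8.66 TPM at Chronic 24 h, overlapping PBS.

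With daily doses, ARC was at 9.17, 8.26 and 8.74 TPM with ascorbic acid. It was at 32.2, 38.7 and 32.8 TPM at 2 Day, at 29.8, 27.0 and 28.3 TPM at 3 Day, at 35.8, 39.8 and 50.0 TPM at 4 Day, and at 22.0 and 46.6 TPM at 5 Day. All 11 dopamine libraries were above all vehicle libraries, and the libraries of 5 Day differed from each other more than those of the other groups did. For ARC, the log2(fold change) was 2.12 ± 0.17 at 2 Day (adjusted p = 5.59e-06), 1.80 ± 0.17 at 3 Day (3.01e-05), 2.29 ± 0.17 at 4 Day (2.54e-06) and 2.07 ± 0.19 at 5 Day (2.26e-05). These calls were kept with each library left out (largest adjusted p = 0.000532), and none of the 10 genes had a linear trend over 2 Day to 5 Day (0 called in a background of 0.0119%; 0 at an unadjusted p under 0.05, beside 8.64% of all genes, and 0 with DESeq2).

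HOMER1, a scaffold that links metabotropic glutamate receptors and SHANK proteins at the postsynaptic density (chr5:79372636-79514134, minus strand), differed little from vehicle. At 1 mM it was at 31.9, 28.7 and 29.3 TPM in PBS, at 29.4, 33.4 and 33.3 TPM at Acute 1 h and at 27.5, 26.4 and 29.4 TPM at Chronic 1 h, and all 3 groups overlapped. On the log2 scale, the fold change was 0.16 ± 0.11 at Acute 1 h (adjusted p = 0.336) and lay between -0.02 and 0.06 at 2 to 5 Day. In the 12 comparisons with vehicle, its adjusted p-values were all above 0.05 with exon reads. Reads in its introns were fewer at 1 mM Acute 1 h and 24 h, with 93, 100 and 112 reads and 92, 125 and 167 reads against 297, 317 and 236 in PBS. The share of reads in introns over all genes was lower in these groups too, at 12.3% to 13.2% and 12.5% to 15.9% against 19.5% to 21.8%. Intron reads were also tested with libraries scaled by their intron reads, a choice made after the data were seen. HOMER1 then had a log2(fold change) of -0.16 ± 0.13 at Acute 1 h (adjusted p = 0.334). At Acute 24 h it was -0.40 ± 0.13 (adjusted p = 0.0265). The cause of the difference in raw intron reads was not tested.

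NPAS4, a transcription factor that regulates inhibitory synapses (chr11:66421004-66426707, plus strand), had few reads in the dopamine experiments. At 1 mM it was at 0.845, 0.638 and 4.87 TPM in PBS (11, 9 and 67 exon reads), at 6.14, 6.25 and 5.02 TPM at Acute 1 h (83, 71 and 61 reads) and at 3.62, 3.94 and 3.88 TPM at Chronic 1 h. The third PBS library was near the dopamine libraries and lay above those of Chronic 1 h, while the Acute 1 h libraries did not overlap PBS. Against vehicle, the log2(fold change) of NPAS4 was 1.50 ± 0.64 at Acute 1 h (adjusted p = 0.126) and 0.79 ± 0.64 at Chronic 1 h (adjusted p = 0.604). The value at Acute 1 h rests on that PBS library, since it was 3.01 (adjusted p = 0.00989) without it and 1.04 (adjusted p = 0.349) without PBS replicate 2. At 1 µM, PBS had 4, 0 and 2 exon reads, Acute 1 h 10, 11 and 29, and Chronic 1 h 8, 10 and 14, so the groups did not overlap in TPM, and the log2(fold change) of 3.38 ± 0.96 at Acute 1 h (adjusted p = 0.0529) rests on 6 reads in the controls. The PBS library with 0 reads allows up to 0.291 TPM (3 reads). At 24 h after 1 µM, 1 read was counted in 3 libraries of Acute and 1 in 3 libraries of Chronic.

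With daily doses, NPAS4 was at 1.60, 1.86 and 2.94 TPM with ascorbic acid. It was at 6.69, 5.13 and 6.42 TPM at 2 Day, at 4.92, 7.22 and 5.56 TPM at 3 Day, at 5.44, 8.31 and 4.28 TPM at 4 Day, and at 6.98 and 3.29 TPM at 5 Day. All dopamine libraries were above all vehicle libraries. The log2(fold change) was 1.63 ± 0.37 (adjusted p = 0.0235), 1.56 ± 0.37 (0.0172), 1.51 ± 0.37 (0.0312) and 1.42 ± 0.41 (0.101) from 2 Day to 5 Day. At 5 Day, NPAS4 depended on which of the 2 libraries was kept, with 2.04 (adjusted p = 0.0109) without replicate 3 and 0.54 (adjusted p = 0.586) without replicate 2. Each of the first 3 calls ended without ascorbic acid replicate 1 or 2, or without any library of 2 Day for 2 Day, replicate 2 of 3 Day for 3 Day and replicate 1 or 2 of 4 Day for 4 Day (largest adjusted p = 0.106, 0.0982 and 0.136). These 3 calls also ended when total gene reads, on exons and introns, were tested. Introns held 27.1% of NPAS4 reads with ascorbic acid and 3.85% to 8.8% at 2 to 5 Day.

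BDNF, a neurotrophin that acts on the receptor TrkB (chr11:27654893-27722058, minus strand), was not raised at 1 mM Acute 1 h. It was at 2.55, 2.70 and 3.90 TPM in PBS and at 2.49, 2.07 and 1.93 TPM at Acute 1 h, so that every dopamine library was below every PBS library, with a log2(fold change) of -0.43 ± 0.32 (adjusted p = 0.387). At 1 µM Acute 1 h the order was the opposite, with 3.45, 5.10 and 4.22 TPM against 2.64, 3.23 and 3.23 TPM in PBS, again without overlap, and a log2(fold change) of 0.51 ± 0.29 (adjusted p = 0.356). The responses of BDNF to the 2 doses differed by -0.92 ± 0.43 (adjusted p = 0.309), which is not past the threshold. In the daily-dose experiment it was at 1.70, 2.08 and 1.52 TPM with ascorbic acid, at 2.82, 2.24 and 3.28 TPM at 2 Day, at 1.99, 1.78 and 2.01 TPM at 3 Day, at 3.11, 2.56 and 3.02 TPM at 4 Day and at 2.27 and 4.13 TPM at 5 Day. The groups of 2, 4 and 5 Day did not overlap the vehicle and 3 Day did. For BDNF, the log2(fold change) was 0.78 ± 0.19 (adjusted p = 0.0338), 0.22 ± 0.19 (0.555), 0.74 ± 0.19 (0.0399) and 0.96 ± 0.21 (0.0281) from 2 Day to 5 Day. These calls rest on 41 to 102 exon reads per library, and each of the 3 ended without any 1 ascorbic acid library. They also ended without any 1 library of 2 Day (for 2 Day), any 1 of 4 Day, 2 Day replicate 1 or 3 Day replicate 3 (for 4 Day), and 5 Day replicate 3 (for 5 Day), with largest adjusted p-values of 0.118, 0.143 and 0.147. The cultures' medium held BDNF protein, which RNA-seq does not measure.

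VGF encodes a secreted granin that is a precursor of neuropeptides (chr7:101162509-101165569, minus strand), and it is the gene whose promoter held the full CRE. At 1 mM it was at 194, 159 and 188 TPM in PBS, at 236, 229 and 231 TPM at Acute 1 h and at 160, 198 and 180 TPM at Chronic 1 h. All Acute 1 h libraries were above all PBS libraries, while the Chronic 1 h libraries overlapped PBS. Against vehicle, its log2(fold change) was 0.43 ± 0.13 at Acute 1 h (adjusted p = 0.0399) and -0.05 ± 0.13 at Chronic 1 h (adjusted p = 0.907). Chronic 1 h was lower than Acute 1 h by a log2 difference of -0.48 ± 0.13 (adjusted p = 0.0322), the 1 call among the 10 genes in that comparison, where 11.3% of all genes were called (5.91% lower; 2.82% and 0 of the 10 genes under the stricter rule). Summed TPM of the 5 astrocyte markers was 115 to 151 in PBS, 106 to 111 at Acute 1 h and 194 to 206 at Chronic 1 h, and its part in the result was not tested. Without replicate 1 of Acute 24 h, HOMER1, INHBA and NPTX2 were also called lower at Chronic 1 h than at Acute 1 h (background 34%). The call at Acute 1 h ended without any 1 library of PBS or Acute 1 h, Chronic 1 h replicate 3, or Chronic 24 h replicate 1 or 2 (largest adjusted p = 0.191), and that of Chronic against Acute without any 1 library of Acute 1 h or Chronic 1 h replicate 1 or 3 (largest adjusted p = 0.137).

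Repeated 1 mM dopamine gave another result in the daily-dose experiment. VGF was at 151, 171 and 178 TPM with ascorbic acid, close to its level in PBS. It was at 286, 316 and 310 TPM at 2 Day, at 372, 397 and 391 TPM at 3 Day, at 349.8, 342 and 342 TPM at 4 Day and at 264 and 377 TPM at 5 Day. The lowest of these 11 dopamine libraries was above the highest of the ascorbic acid libraries. The log2(fold change) was 1.00 ± 0.08 (adjusted p = 5.59e-06), 1.31 ± 0.08 (2.33e-07), 1.07 ± 0.08 (2.54e-06) and 1.06 ± 0.09 (1.14e-05) from 2 Day to 5 Day. These calls were kept with each library left out (largest adjusted p = 0.000241). Markers of cell types moved in the same groups. Summed TPM of the 6 mesenchymal markers was 119 to 182, 147 to 311, 178 to 209 and 140.5 to 255.5 from 2 Day to 5 Day against 103 to 126 with ascorbic acid, and that of the 13 striatal projection neuron markers was 85.0 to 126.4 against 127 to 141. Their part in the results of VGF and of the other genes called at 2 to 5 Day was not tested.

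Both 5 Day and 1 mM Chronic 1 h received 1 mM dopamine on 5 days and were taken 1 h after the last dose. The effect on VGF at 1 mM Chronic 1 h was smaller than that at 5 Day by a log2 difference of -1.11 ± 0.17 (interaction term in a fit of both experiments, adjusted p = 0.00135), where 0.665% of 18349 genes were called (0.441% lower). VGF was the 1 call among the 10 genes. The interaction of ARC was 0.50 ± 0.52 (adjusted p = 0.749). The call of VGF was kept with each library left out (largest adjusted p = 0.00972). The vehicle (PBS or ascorbic acid), the culture and the experiment differ between these groups and cannot be told apart.

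**Figure D3:**
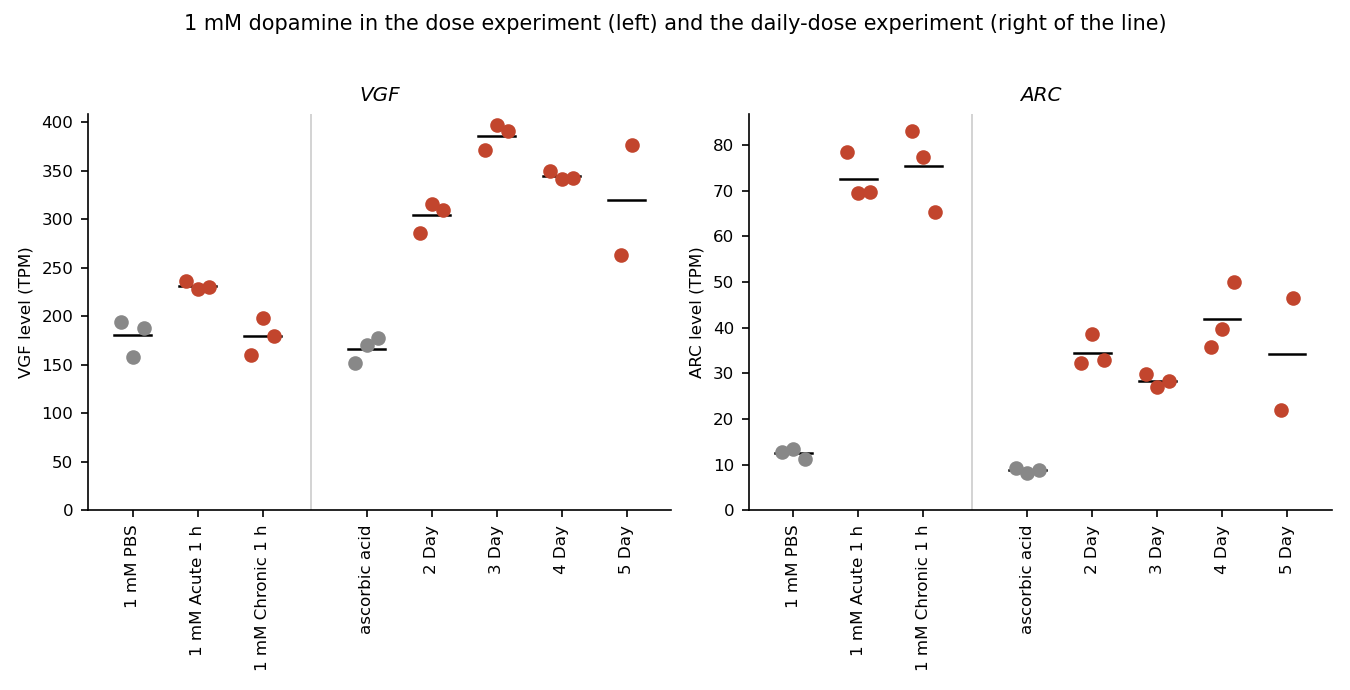
VGF (left) and ARC (right) in TPM (axes from 0) with 1 point per library and bars at group means, for 1 mM dopamine in the dose experiment and, right of the grey line, in the daily-dose experiment. VGF stays at 160 to 198 TPM at 1 mM Chronic 1 h but reaches 264 to 397 TPM at 2 to 5 Day, while ARC is above its vehicle in all dopamine groups.

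At 1 µM, VGF was at 141, 53.3 and 146 TPM in PBS, at 129, 28.1 and 169 TPM at Acute 1 h and at 158, 74.1 and 156 TPM at Chronic 1 h. Replicate 2 was the lowest in all 3 groups and the groups overlapped. For VGF, the log2(fold change) was -0.06 ± 0.40 at Acute 1 h (adjusted p = 0.953). Responses to 1 mM and 1 µM differed by 0.50 ± 0.45 (adjusted p = 0.666), so a difference was not detectable beside this spread. Between Chronic 1 h and Acute 1 h at 1 µM, 0 of the 10 genes were called (background 1.2%; 0 at an unadjusted p under 0.05, beside 13.3% of all genes, and 0 with DESeq2).

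SCG2 encodes secretogranin II, a granin of dense-core granules and the precursor of secretoneurin (chr2:223596940-223602361, minus strand). It was at 454, 384 and 522 TPM in 1 mM PBS and at 516, 569 and 565 TPM at Acute 1 h, where 1 dopamine library lay within the range of PBS, with a log2(fold change) of 0.34 ± 0.16 (adjusted p = 0.155). At 1 µM the sign was the opposite, with 183, 193 and 206 TPM in PBS and 133, 137 and 155 TPM at Acute 1 h. These groups did not overlap, and the log2(fold change) was -0.45 ± 0.20 (adjusted p = 0.216). The responses to the 2 doses differed by 0.82 ± 0.26 (adjusted p = 0.101), or by 0.81 (adjusted p = 0.0343) once the 1 mM Acute 24 h library that stands apart was omitted. With all libraries, 0 of the 10 genes were called in this interaction of dose and dopamine (background 2.01%; 3 genes at an unadjusted p under 0.05, beside 15.1% of all genes, and 0 called with DESeq2). In the daily-dose experiment SCG2 was at 258, 265 and 315 TPM with ascorbic acid and at 512, 418 and 409 TPM at 3 Day, without overlap, with a log2(fold change) of 0.77 ± 0.17 (adjusted p = 0.0147). That call ended without 3 Day replicate 2 or ascorbic acid replicate 1 or 2 (largest adjusted p = 0.0843).

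NPTX2 encodes a neuronal pentraxin that is secreted at synapses and clusters AMPA receptors (chr7:98617285-98629869, plus strand). At 1 mM it was at 17.6, 18.7 and 17.5 TPM in PBS, at 32.7, 26.0 and 31.7 TPM at Acute 1 h and at 23.7, 25.9 and 25.7 TPM at Chronic 1 h. Both dopamine groups were above PBS without overlap, and Acute 1 h was above Chronic 1 h in all libraries. Against PBS, the log2(fold change) of NPTX2 was 0.82 ± 0.19 at Acute 1 h (adjusted p = 0.0125) and 0.45 ± 0.19 at Chronic 1 h (adjusted p = 0.258), and the difference of Chronic from Acute was -0.37 ± 0.19 (adjusted p = 0.229). The call at Acute 1 h ended without PBS replicate 1 or Acute 1 h replicate 3 (largest adjusted p = 0.0562). At 24 h after Chronic dopamine it was at 12.7, 11.1 and 14.6 TPM, below all PBS libraries (log2(fold change) -0.51 ± 0.19, adjusted p = 0.323, or 0.0189 without replicate 1 of Acute 24 h).

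At 1 µM, NPTX2 was at 15.0, 7.36 and 12.2 TPM in PBS, at 33.4, 11.8 and 36.4 TPM at Acute 1 h and at 27.7, 10.2 and 32.4 TPM at Chronic 1 h. Replicate 2 was the lowest in each group, and its values with dopamine lay within the range of PBS, while within pairs of the same replicate number the dopamine library was the higher in 3 of 3 in both groups. The log2(fold change) was 1.23 ± 0.37 at Acute 1 h (adjusted p = 0.0683) and 1.05 ± 0.37 at Chronic 1 h (adjusted p = 0.18). Within pairs it was called in neither group (adjusted p = 0.0728 and 0.189). At Acute 1 h it was called without replicate 2 of that group (1.53, adjusted p = 0.0156) or of Chronic 1 h (1.23, adjusted p = 0.0422). With daily doses NPTX2 was at 20.2, 17.6 and 18.0 TPM with ascorbic acid and at 22.0, 24.5 and 27.6 TPM at 2 Day, without overlap but not past the threshold (0.54 ± 0.16, adjusted p = 0.063, or 0.0226 and 0.024 without 5 Day replicate 2 or 3).

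The reads of NPTX2 in introns changed more than those on exons. At 1 mM they numbered 55, 55 and 33 in PBS, 241, 186 and 185 at Acute 1 h, and 186, 222 and 166 at Chronic 1 h, against 202, 233 and 212 exon reads in PBS and 390, 261 and 341 at Acute 1 h. The share of NPTX2 reads in introns was 18.1% in PBS, 38.2% at Acute 1 h, 38.7% at Chronic 1 h, 15% at Acute 24 h and 17.9% at Chronic 24 h. Over all genes, this share was lower at Acute 1 h (12.3% to 13.2%) than in PBS (19.5% to 21.8%), which is the opposite direction, and was 20.6% to 20.9% at Chronic 1 h. No annotated gene overlaps NPTX2.

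Intron reads were tested in the same way, as a choice made after the data were seen, with 2 scalings. With libraries scaled by their intron reads, NPTX2 rose by 3.42 ± 0.23 on the log2 scale at 1 mM Acute 1 h (adjusted p = 3.92e-07) and by 1.99 ± 0.23 at 1 mM Chronic 1 h (adjusted p = 0.000569), where 45.2% and 2.54% of all genes were called. With libraries scaled as for exon reads, it was 2.30 ± 0.27 (adjusted p = 8.47e-06) and 1.96 ± 0.27 (adjusted p = 0.00157), where 70.1% and 1.45% were called and the median of all genes was -1.07 and -0.05. NPTX2 thus rose under both scalings while the intron reads of most genes fell at Acute 1 h under the second. A lower value at Chronic 1 h than at Acute 1 h was called under the first scaling (-1.44 ± 0.21, adjusted p = 0.000425; background 32.9%) and not under the second, in which the raw reads of these groups overlap.

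At 1 µM the NPTX2 intron reads were 20, 0 and 18 in PBS, 106, 72 and 202 at Acute 1 h and 105, 52 and 118 at Chronic 1 h. Every 1 µM library taken at 1 h was above every PBS library, replicate 2 included. At 24 h they were 36, 34 and 35 (Acute) and 20, 86 and 18 (Chronic), where the library with 86 had 27702963 exon reads in all. The pooled share in introns was above that of PBS, at 25.7% and 22.8% against 11.9%. At 24 h no rise was called with libraries scaled by intron reads. The log2(fold change) there was 1.70 ± 0.77 for Acute (adjusted p = 0.310) and 1.32 ± 0.77 for Chronic (adjusted p = 0.997). Scaled by intron reads, the log2(fold change) was 3.57 ± 0.78 at Acute 1 h (adjusted p = 0.00712; background 12.8%) and 3.32 ± 0.78 at Chronic 1 h (0.0145; 8.57%). Scaled as for exon reads, it was 3.76 ± 0.73 (0.00876; 4.94%) and 2.88 ± 0.71 (0.0214; 8.34%). At 2 Day it was 1.42 ± 0.36 (adjusted p = 0.0438) and 1.32 ± 0.31 (0.0401) by the 2 scalings. At 3, 4 and 5 Day it was not called. Scaled by intron reads, it was 0.80 ± 0.37, 1.40 ± 0.36 and 1.19 ± 0.40 there (adjusted p = 0.226, 0.084 and 0.101). VGF, SCG2, LIF and HBEGF were also called higher on intron reads at 1 mM Acute 1 h under the first scaling and not under the second, and their raw intron reads overlapped those of PBS, while ARC and NPAS4 had too few to be tested.

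**Figure D4:**
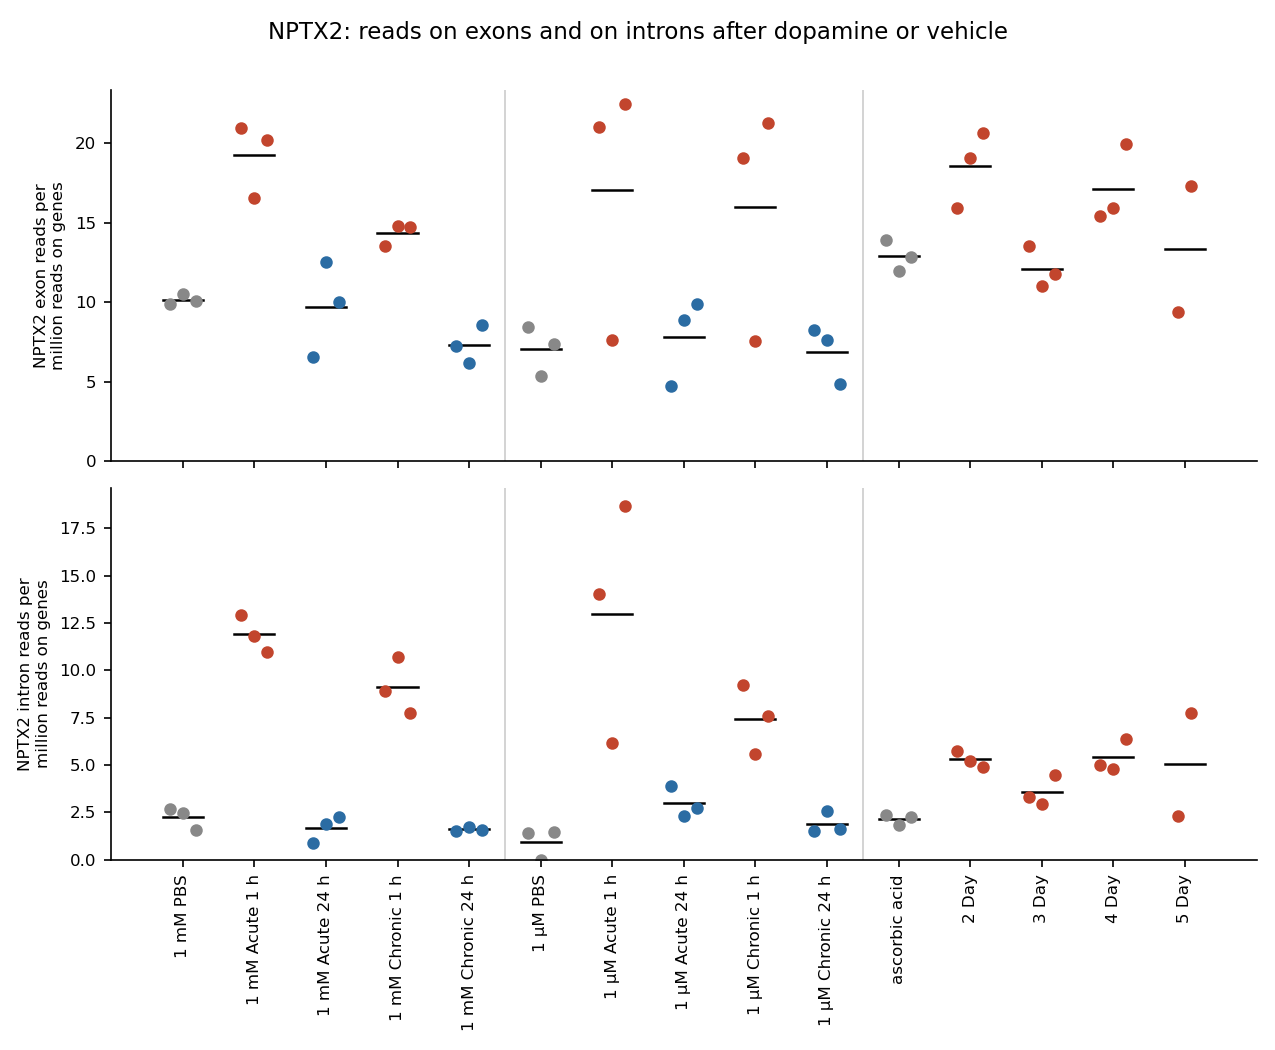
NPTX2 reads on exons (top) and on introns (bottom) scaled by the reads on all genes of a library, with axes from 0, 1 point per library and bars at group means, for the 15 groups of the dopamine experiments. Intron reads are higher at 1 h after dopamine at both doses, than in PBS. Their share of NPTX2 reads was 38.2% and 38.7% at 1 h, 15% and 17.9% at 24 h and 18.1% in PBS at 1 mM, and 43.6% and 30.7% at 1 h, 25.7% and 22.8% at 24 h and 11.9% in PBS at 1 µM (Acute and Chronic each).

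INHBA encodes the beta A subunit of activin and inhibin (chr7:41667168-41705834, minus strand). At 1 mM it was at 0.986, 1.35 and 1.39 TPM in PBS, at 2.21, 1.93 and 2.69 TPM at Acute 1 h, at 4.82, 2.24 and 1.97 TPM at Acute 24 h and at 1.34, 1.60 and 1.13 TPM at Chronic 1 h. Both Acute groups were above PBS without overlap, and Chronic 1 h overlapped PBS. On the log2 scale, the fold change was 0.94 ± 0.29 at Acute 1 h (adjusted p = 0.0409) and 1.11 ± 0.28 at Acute 24 h (adjusted p = 0.024; 0.71 with adjusted p = 0.0369 without replicate 1 of that group), on 31 to 119 exon reads per library. The call at 24 h ended without any 1 PBS library (largest adjusted p = 0.097), and that at 1 h without any 1 library of PBS, Acute 1 h or Chronic 1 h or without Chronic 24 h replicate 1 (largest adjusted p = 0.16). Chronic 1 h was below Acute 1 h by -0.85 ± 0.29 (adjusted p = 0.0709). At 1 µM, INHBA was at 0.681 to 1.00 TPM in PBS and at 2.38, 0.243 and 1.15 TPM at Acute 1 h, overlapping PBS, with a log2(fold change) of 0.45 ± 0.83 (adjusted p = 0.826).

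HBEGF encodes a membrane-anchored growth factor that is shed and binds EGF receptors (chr5:140332843-140346603, minus strand). At 1 mM it was at 14.01, 11.1 and 12.4 TPM in PBS, at 22.8, 20.1 and 19.9 TPM at Acute 1 h and at 21.2, 22.5 and 19.5 TPM at Chronic 1 h. Both dopamine groups were above PBS without overlap. Against vehicle, its log2(fold change) was 0.81 ± 0.33 (adjusted p = 0.11) and 0.71 ± 0.32 (adjusted p = 0.297) in these 2 groups. At Acute 24 h it was at 46.0, 13.7 and 12.9 TPM, and without the library at 46.0 TPM the adjusted p-values at 1 h became 7.58e-05 for Acute and 0.00047 for Chronic. At 1 µM Chronic 1 h, HBEGF was at 11.2, 11.7 and 16.4 TPM against 6.97, 5.23 and 8.22 TPM in PBS, without overlap, with a log2(fold change) of 1.00 ± 0.28 (adjusted p = 0.0846, or 0.0436 without 1 µM Acute 1 h replicate 2). It was called at 3 Day, with 11.3, 14.9 and 18.5 TPM against 8.91, 7.53 and 10.96 TPM with ascorbic acid, again without overlap (0.80 ± 0.19, adjusted p = 0.0203), and this call ended without 3 Day replicate 2 or 3 or ascorbic acid replicate 1 or 2 (largest adjusted p = 0.115).

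LIF encodes a cytokine of the interleukin-6 family (chr22:30240453-30246759, minus strand). With ascorbic acid it was at 2.84, 2.80 and 3.71 TPM, and at 3 Day at 3.90, 10.8 and 17.8 TPM. The 3 Day libraries lay above the vehicle without overlap but differed from each other more than from the vehicle, with the first close to it. The log2(fold change) was 1.89 ± 0.38 (adjusted p = 0.00776; 0.04996 at the largest with 1 library left out), beside 0.61, 0.74 and 0.59 at 2, 4 and 5 Day (adjusted p = 0.405, 0.321 and 0.571). Summed TPM of the 6 mesenchymal markers was 147, 230 and 311 in the 3 Day libraries, in the same order as LIF, and 103 to 126 with ascorbic acid. Its part in the result of LIF was not tested. At 1 mM, LIF was at 5.44, 5.84 and 4.77 TPM in PBS and at 7.73, 5.93 and 4.73 TPM at Acute 1 h, overlapping. At 1 µM Acute 1 h it was at 5.59, 0 and 3.05 TPM, where 0 reads allow up to 0.312 TPM, against 9.51, 4.81 and 9.89 TPM in PBS, also overlapping, with a log2(fold change) of -1.56 ± 0.69 (adjusted p = 0.221). Within pairs of the same replicate number LIF was lower with dopamine in 3 of 3, with -1.72 ± 0.67 (adjusted p = 0.166).

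**Figure D5:**
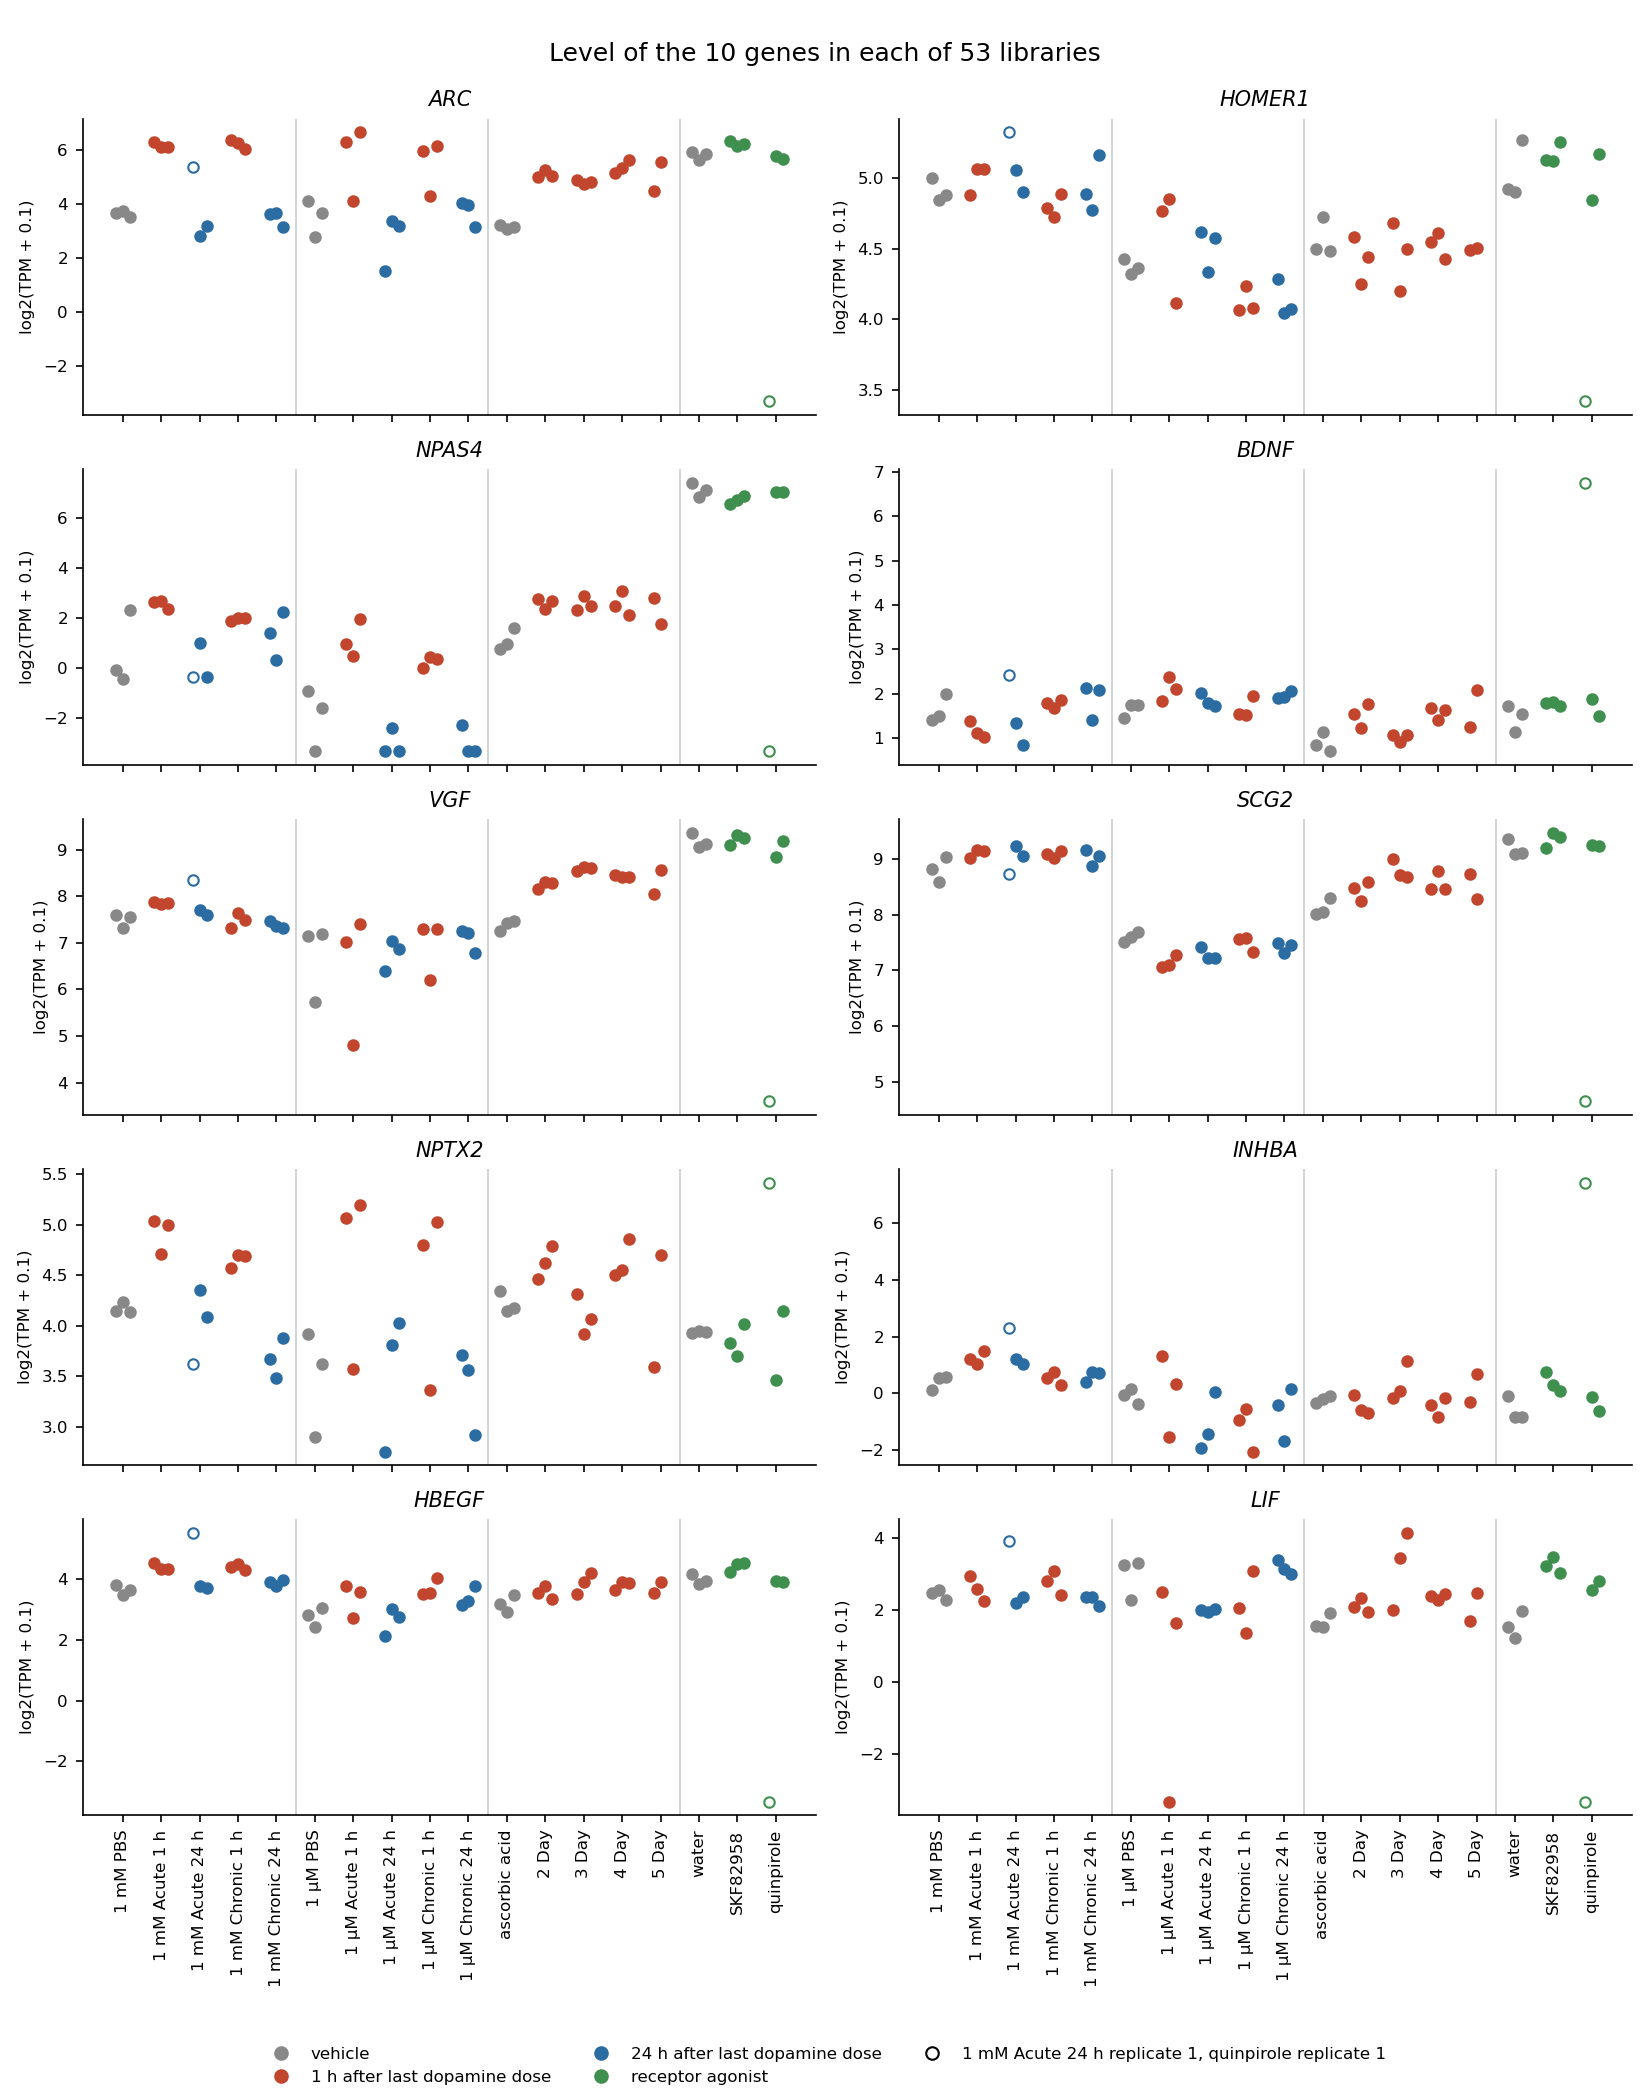
Level of each of the 10 genes in all 53 libraries on a log2(TPM + 0.1) axis, with 1 point per library grouped by condition, and open points for 1 mM Acute 24 h replicate 1 and quinpirole replicate 1. ARC lies above its vehicle in every group taken 1 h after dopamine and NPAS4 is highest in the agonist experiment, while the open quinpirole point (0 TPM for ARC, NPAS4, HBEGF and LIF) stands apart in most panels.

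The agonist experiment had 0 of the 10 genes called for SKF82958 against water (background 0.0124%; 1 gene at an unadjusted p under 0.05, beside 1.15% of all genes) and for quinpirole against water (background 0%; 2 genes, beside 2.17%). For SKF82958 against quinpirole 0 were called as well (background 0%; 1 gene at an unadjusted p under 0.05, beside 1.5%, and 0 called with DESeq2). With DESeq2 the calls were 0 for SKF82958 and 1 for quinpirole, INHBA. In edgeR, the log2(fold change) of INHBA with quinpirole was 5.01 (adjusted p = 0.989) with quinpirole replicate 1. Without that library it was 0.25 ± 0.43 (adjusted p = 0.935). LIF was at 2.80, 2.26 and 3.88 TPM in water, at 9.38, 11.2 and 8.14 TPM with SKF82958 and at 0, 5.77 and 6.89 TPM with quinpirole. All SKF82958 libraries and the other 2 quinpirole libraries were above all water libraries, and the value of 0 belongs to quinpirole replicate 1, whose depth allows up to 25.0 TPM. For LIF, the log2(fold change) with SKF82958 was 1.61 ± 0.40 with that library (adjusted p = 1) and 1.61 without it (adjusted p = 0.000506; background 0.624%), where LIF was the 1 call among the 10 genes. For quinpirole it was 1.00 ± 0.42 with that library (adjusted p = 0.989) and 1.14 ± 0.23 without it (adjusted p = 0.0887). Summed TPM of the mesenchymal markers was 168, 195 and 143 with SKF82958, in the same order as LIF, against 119 to 124 in water. In quinpirole replicates 2 and 3 it was 137 and 132, in the opposite order to LIF. Summed TPM of the astrocyte markers was 206 to 215 with SKF82958 and 177 to 186 in water. The part of these markers in the result of LIF was not tested.

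ARC and NPAS4 were high already in water. ARC was at 60.6, 48.8 and 57.5 TPM in water, at 81.0, 70.5 and 75.2 TPM with SKF82958 and at 54.3 and 51.1 TPM in quinpirole replicates 2 and 3. SKF82958 stood above water without overlap (0.36 ± 0.22, adjusted p = 1, or 0.36 ± 0.10, adjusted p = 0.231, without quinpirole replicate 1). NPAS4 was at 171, 116 and 138 TPM in water and at 93.6, 107 and 117 TPM with SKF82958, which overlap at 116 and 117 TPM. For NPAS4, the log2(fold change) was -0.51 ± 0.77 (adjusted p = 1) with quinpirole replicate 1 and -0.51 ± 0.12 (adjusted p = 0.11) without it. INHBA and BDNF were at 171 and 108 TPM in quinpirole replicate 1, on 44 and 26 exon reads, and at 0.544 to 0.827 and 2.72 to 3.59 TPM in the other 2 quinpirole libraries.

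Genes that act with the 10 were taken as 42 receptors, processing enzymes, paralogs and binding partners, and 42 of them were tested in each comparison. At 1 mM Acute 1 h, 4 were higher and 3 lower (16.7% of the list, beside 16% of all genes), and the median log2(fold change) of the list was 0.01, as for all genes. At 2, 3, 4 and 5 Day, 3, 5, 5 and 5 were higher and 1, 2, 0 and 0 lower, or 9.52%, 16.7%, 11.9% and 11.9% of the list beside 3.88%, 7.37%, 4.38% and 1.63% of all genes. At 1 µM, 3 were higher and 2 lower at Acute 1 h (11.9%, beside 5.77%) and 1 higher and 0 lower at Chronic 1 h (2.38%, beside 2.58%), and at 1 mM Chronic 1 h 0 were higher and 1 (ADAM10, a sheddase, -0.30, adjusted p = 0.0347) lower (2.38%, beside 2.08%). At 1 mM Acute and Chronic 1 h and at 1 µM Chronic 1 h the share of the list was thus near that of all genes. With the agonists, 0 were called.

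Among 8 granins and enzymes of granules, PCSK1, a convertase that cleaves granins, and PAM, which amidates neuropeptides, were higher at 2, 3, 4 and 5 Day. PCSK1 had a log2(fold change) of 0.60, 0.61, 0.63 and 0.52 (adjusted p = 0.00318, 0.00164, 0.00203 and 0.0238) and PAM of 0.41, 0.41, 0.42 and 0.40 (0.00305, 0.00184, 0.00227 and 0.0121), and no other gene of the 8 was called there. These were chosen after their values were seen. At 1 mM Acute 1 h, PAM (0.50 ± 0.10, adjusted p = 0.00678) and the convertase PCSK2 (0.52 ± 0.11, 0.00866) were higher. At 1 mM Chronic 1 h, PAM and PCSK2 were lower than at Acute 1 h, by -0.81 ± 0.10 (adjusted p = 0.000488) and -0.70 ± 0.11 (0.00187), as VGF was. The effect on PAM at 1 mM Chronic 1 h was below that at 5 Day by -0.72 (adjusted p = 0.00784), and PAM and ADAM10 were the 2 of the 42 called in that interaction.

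INHBB, the other beta subunit of activins, was higher at 2, 4 and 5 Day with log2(fold changes) of 1.52, 1.44 and 1.34 (adjusted p = 0.00916, 0.0112 and 0.0455), while INHBA itself was not called in the daily-dose experiment. FST, which binds and inhibits activin, was lower at 2 Day (-1.81 ± 0.49, adjusted p = 0.0497). NPTX1, a pentraxin that forms complexes with NPTX2, was higher at 1 µM Acute 1 h (1.61 ± 0.17, adjusted p = 8.86e-05) and Chronic 1 h (1.81 ± 0.17, 9.13e-05), and its response at Acute 1 h was smaller at 1 mM by -1.41 ± 0.24 (adjusted p = 0.00181). ERBB4, a receptor of the EGF receptor family, was higher at 1 mM Acute 1 h (0.58 ± 0.13, adjusted p = 0.011), and SHANK2, a scaffold that binds HOMER1, was lower (-0.57 ± 0.13, 0.011). Of the 3 neurotrophin receptors, SORT1 was called at 3 Day (0.38 ± 0.09, adjusted p = 0.0143), and 0 were called at 2, 4 and 5 Day, where BDNF was called.

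A second list held 20 other effectors that neuronal activity induces, 18 of them tested in the 1 mM, daily-dose and agonist experiments and 17 at 1 µM. At 1 mM Acute 1 h 6 were higher and 3 lower (50% of those tested, beside 16% of all genes) and at Chronic 1 h 1 was higher and 0 lower (5.56%, beside 2.08%). At 2, 3, 4 and 5 Day 6, 6, 4 and 3 were higher and 0 lower, or 33.3%, 33.3%, 22.2% and 16.7% beside 3.88%, 7.37%, 4.38% and 1.63%. At 1 µM, 1 was higher and 3 lower at Acute 1 h (23.5%, beside 5.77%), and 2 were higher and 2 lower at Chronic 1 h (23.5%, beside 2.58%). CSRNP1, a nuclear protein, rose by 1.17 ± 0.35 at 1 mM Acute 1 h (adjusted p = 0.0358), by 2.74 ± 0.42 at 1 µM Acute 1 h (0.0016) and by 0.93, 1.59, 1.13 and 0.92 at 2, 3, 4 and 5 Day (0.00305, 1.97e-05, 0.00061 and 0.012). ADAMTS1, a secreted protease, went in opposite directions at the 2 doses, with 1.91 ± 0.21 at 1 mM Acute 1 h (adjusted p = 0.000174) and -0.89 ± 0.23 at 1 µM Acute 1 h (0.0327), and the 2 responses differed by 2.82 ± 0.31 (adjusted p = 8.28e-06). NRN1, a neuritin that promotes neurite growth, fell by 1.30 at 1 mM Acute 1 h (adjusted p = 0.000213) and by 0.92 at 1 µM Acute 1 h (0.000292).

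Across the means of the 18 groups, centred within each experiment, the genes whose pattern was most like that of each gene were found by Pearson's r of log2(TPM + 0.1), as a description of points that share experiments. For ARC the leading genes were FOS (0.97) and JUNB (0.957) among 23997 genes. Without quinpirole replicate 1, as a choice made after the data were seen, 20294 genes remained, and those nearest to ARC were FOS (0.974), JUNB (0.966) and EGR2 (0.957), all immediate early transcription factors. For NPTX2 the leading pair was SIK1B (0.928) and SIK1 (0.91), near-identical copies whose reads are uncertain. For VGF they were DUSP6 (0.887), a phosphatase of the kinase ERK, RGS4 (0.873) and LGMN (0.866), and for NPAS4 they were RASD1 (0.911), NR4A3 (0.877) and ARHGDIB (0.871). The other genes led with CDH6 for SCG2 (0.951), RDX for HOMER1 (0.941), SDE2 for HBEGF (0.922), S100A4 for INHBA (0.859), AC005324.5 for BDNF (0.845) and EFEMP1 for LIF (0.843).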

How the data were processed

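The authors mapped RNA-seq reads in CLC Genomics Workbench to hg38 with an Ensembl annotation and deposited a table per library. Each holds, per gene, read counts on exons and introns, unique counts, and TPM, which the authors computed from exon reads. Of 54 samples, 1 (a 5 Day sample) is not analysed here. For exon read counts, the test was that of edgeR 4.0.16 (R 4.3.3; filterByExpr, minimum count 10, minimum total 15; TMM; glmQLFit, glmQLFTest), with all groups of an experiment in 1 fit. Each SE was taken from the log2(fold change) and the F statistic of its test. Other settings were total gene reads, unique reads, DESeq2 1.42.0, no filter, only the groups compared, replicate block and each library left out. The members, lists, tests and naming rule (all members, and at most 3 called genes per list and comparison, by size of change) were chosen with earlier results of these data known. The test was checked on simulated data. Deviations of same-numbered libraries correlated above 0.1 in all pairs for 1 µM Acute 1 h against PBS (0.12 to 0.318), Chronic 1 h against PBS (0.163 to 0.29) and Chronic against Acute 1 h (0.12 to 0.446) and in no other comparison, so these were taken as paired. Intervals and floors of 3 reads cover counting error only. One gene of like pattern is not reported here.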

Additional observations from a re-analysis of the deposited data

Results flagged for a closer look

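VGF is listed in 2 places because its response differed between groups by a test of the difference itself. In the 1 mM experiment, VGF was lower at Chronic 1 h than at Acute 1 h, by a log2(fold change) of -0.48 ± 0.13 (edgeR, adjusted p = 0.0322; background 11.3%, with 5.91% of all genes lower). This call ended in 5 of 15 fits with 1 library left out (largest adjusted p = 0.137) and was not made under the stricter rule. Chronic cultures were also older than Acute ones at RNA extraction. Summed TPM of the astrocyte markers was 106 to 111 at Acute 1 h and 194 to 206 at Chronic 1 h, and its part in the result was not tested. Between experiments, the response of VGF to 1 mM dopamine on 5 days was smaller at 1 mM Chronic 1 h than at 5 Day, by a log2 difference of -1.11 ± 0.17 (adjusted p = 0.00135).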

How the results depend on the processing

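Counts below are of the 10 genes called, with the share of all genes called under the same setting in parentheses. With total gene reads they became 7 (47.2%) at 1 mM Acute 1 h, 3 (43.8%) at Acute 24 h and 5 (40.1%) for Chronic against Acute 1 h, 3 (5.83%) and 0 (3.58%) at 1 µM Acute and Chronic 1 h, and 2 (27.9%) in the dose interaction. With total gene reads and without 1 mM Acute 24 h replicate 1, chosen after the data were seen, they were 9 (60.9%) at Acute 1 h, 4 (50%) at Acute 24 h, 3 (9.3%) at Chronic 1 h and 7 (54.6%) for Chronic against Acute 1 h. With only the groups compared they were 7 (45.5%), 0 (0%), 3 (25.4%) and 6 (44%) in this order, 0 and 0 at 1 µM Acute and Chronic 1 h (0.339% and 0.221%), 8 (13.5%) at 4 Day and 2 (0.939%) for SKF82958. DESeq2 gave 2 (15.5%) for Chronic against Acute 1 h at 1 mM, 3 (10.7%) and 2 (5.75%) at 1 µM Acute and Chronic 1 h, and 1 (0.682%) for quinpirole. Without a filter there were 8 (4.96%) at 4 Day and 6 (2.96%) at 5 Day. Unique reads gave 2 (6.3%) at 1 µM Acute 1 h, and the stricter rule 1 (4.1%) at 1 mM Acute 1 h and 0 (2.82%) for Chronic against Acute 1 h. Without quinpirole replicate 1, total gene reads and DESeq2 gave 1 each for SKF82958 (0.382% and 0.795%), and DESeq2 gave 1 (0.251%) for quinpirole. In edgeR without that library, the lowest adjusted p of the 10 genes for quinpirole was that of LIF (0.0887). That of INHBA was 0.935. The cause of these differences between settings was not tested.

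Intron reads, also chosen after the data were seen, gave 4 (38%) at 1 mM Acute 24 h, 2 (32.9%) for Chronic against Acute 1 h, and 2, 1, 0 and 0 at 2, 3, 4 and 5 Day (3.52%, 2.53%, 0.789% and 0.789%). Without 1 mM Acute 24 h replicate 1 they gave 2 and 2 in these 1 mM comparisons (37.7%, and 9310 of 24434 genes). Scaled as exon reads they gave 2 and 2 (63.3% and 71.8%), then 2, 0, 0 and 0 (2.97%, 0.687%, 0.338% and 0.0805%), with 3 (49%) in the dose and 0 (0.109%) in the experiment interaction. Where either kind of read gave a call, signs opposite to exon reads were found for HOMER1, INHBA and HBEGF. Scaled as exon reads, HOMER1 was at -1.26 at 1 mM Acute 1 h and at 0.93 for Chronic against Acute 1 h. Under that scaling INHBA was at -0.55 at Acute 1 h and HBEGF at -3.50 in the dose interaction. At Acute 24 h, HOMER1 was at -0.40, -0.51 without replicate 1, and -1.36 scaled as exon reads. INHBA at Acute 24 h was at -0.59, -0.29 and -1.46 in the same order. Scaled by intron reads, INHBA at Acute 1 h was at 0.55, with the sign of exon reads. HOMER1 for Chronic against Acute 1 h was at -0.15 under that scaling, also with the sign of exon reads. With 1 library left out, ARC at 1 mM Acute 24 h ranged from -0.70 (without replicate 1 of that group) to 0.74 (without replicate 2), and it was -0.43 without replicate 1 in total gene reads.

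With a replicate block, the count fell from 4 to 2 at 1 mM Acute 1 h (VGF and INHBA lost), from 4 to 3 at 2 Day and 4 Day and from 3 to 2 at 5 Day (BDNF lost in each, adjusted p = 0.0509, 0.0566 and 0.0577), where the numbers do not pair the libraries, and from 1 to 0 at 1 µM Chronic 1 h, where they do. At 1 µM Acute 1 h and Chronic against Acute 1 h, the other paired comparisons, the block changed no call.

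With 1 library left out, the counts ranged from 1 to 7 at 1 mM Acute 1 h, 0 to 3 at Acute 24 h and Chronic 1 h, 0 to 1 at Chronic 24 h and 0 to 4 for Chronic against Acute 1 h. They ranged from 0 to 2 at 1 µM Acute and Chronic 1 h, 2 to 6 at 2 Day and 4 Day, 3 to 6 at 3 Day, 2 to 4 at 5 Day, and 0 to 1 for SKF82958 and the dose interaction. Values of NPAS4 at 1 µM, with 0 to 4 reads in the controls, are limited by depth.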
